A study of Caenorhabditis elegans with 2 samples.

Results

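The positions of NHR-80 peaks were examined at 10 genes of propionate breakdown: the propionate shunt enzyme genes acdh-1, ech-6, hach-1, hphd-1 and alh-8, the nuclear hormone receptor genes nhr-10 and nhr-68, and pcca-1, pccb-1 and mmcm-1 of the vitamin B12-dependent route. They were 10 of 19973 protein-coding genes on the nuclear chromosomes, and they were selected by name for their place in the pathway, with earlier results from the same peak lists known, so their peak values are given as a description without a test. The data are ChIP-seq of NHR-80, itself a nuclear hormone receptor known for control of fatty acid desaturation, in Caenorhabditis elegans. All animals were strain OP460 (unc-119(tm4063) III; wgIs460), which carries nhr-80 with a C-terminal GFP-FLAG tag as an integrated transgene beside a mutant unc-119. They were hermaphrodites at the young adult stage, taken 64 hours after synchronisation as starved L1 larvae, and whole worms were used, so the tissue in which a site was bound is not resolved. There was 1 group with 2 biological replicates and no comparison between conditions. By the description the precipitating antibody was against GFP, while another label gives nhr-80.

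Propionyl-CoA arises from the breakdown of branched-chain amino acids and odd-chain fatty acids and is toxic when it accumulates. In the canonical route, propionyl-CoA carboxylase (subunits from pcca-1 and pccb-1) makes methylmalonyl-CoA, which the B12-dependent mutase MMCM-1 turns into succinyl-CoA. Worms that lack B12 use a shunt resembling beta-oxidation, in which ACDH-1, ECH-6, HACH-1, HPHD-1 and ALH-8 act in turn and end at acetyl-CoA. The receptors NHR-10 and NHR-68 are known to be needed for switching the shunt genes on when propionate persists, and acdh-1 is widely used as a reporter of low B12 in the worm.

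A summit, the highest point of a peak, was counted for a gene when it lay between 2000 bp upstream of the annotated 5' end and 1000 bp past the 3' end. The main list was the authors' list of 7038 peaks thresholded by irreproducible discovery rate (IDR), a limit set from how well peak ranks repeat between replicates. It held exactly the 7038 strongest of the 30000 peaks of the pooled replicates, down to a signal of 93.0. By its title the pooled list holds peaks and background as input for the IDR step. An entry below the threshold may therefore be background and not a bound site. Signal is the authors' value per peak on the scale of their peak caller. It ranks peaks within a list and is not compared between lists, and no read counts accompany it, so sequencing depth is unknown. Within the propionate genes the value just inside the threshold was 104, at hphd-1, and the value just outside was 75.04, at nhr-10.

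In this window, 9 of the 10 genes had a thresholded summit: all 5 shunt enzyme genes, both receptor genes, and pcca-1 and pccb-1. Among all protein-coding genes the share was 32.3%, while it was 32.9% among the 10389 genes whose length lay within the range of the propionate genes (1332 to 4503 bp), a background chosen after the data had been seen. The members hold 22 thresholded summits in 18 intervals, 4 of which carry 2 summits each. Among the rest, 2 intervals at the 3' end of hphd-1 share their start and overlap. At least 2 summits were found at 7 of the 10 genes, against 10.9% of all genes, and 3 or more at 4 of them, against 3.24%. Summits of 1 interval count separately here, for the members and for all genes, so these are not numbers of separate sites. Both summits of pccb-1 lie in 1 interval, and the 3 of nhr-68 and the 3 of alh-8 lie in 2 intervals each. The strongest summit per gene had a median signal of 289 over the 9 genes, against 222 over the 6443 protein-coding genes with a thresholded summit. The plot of summits around each gene shows these positions.

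**Figure D1:**
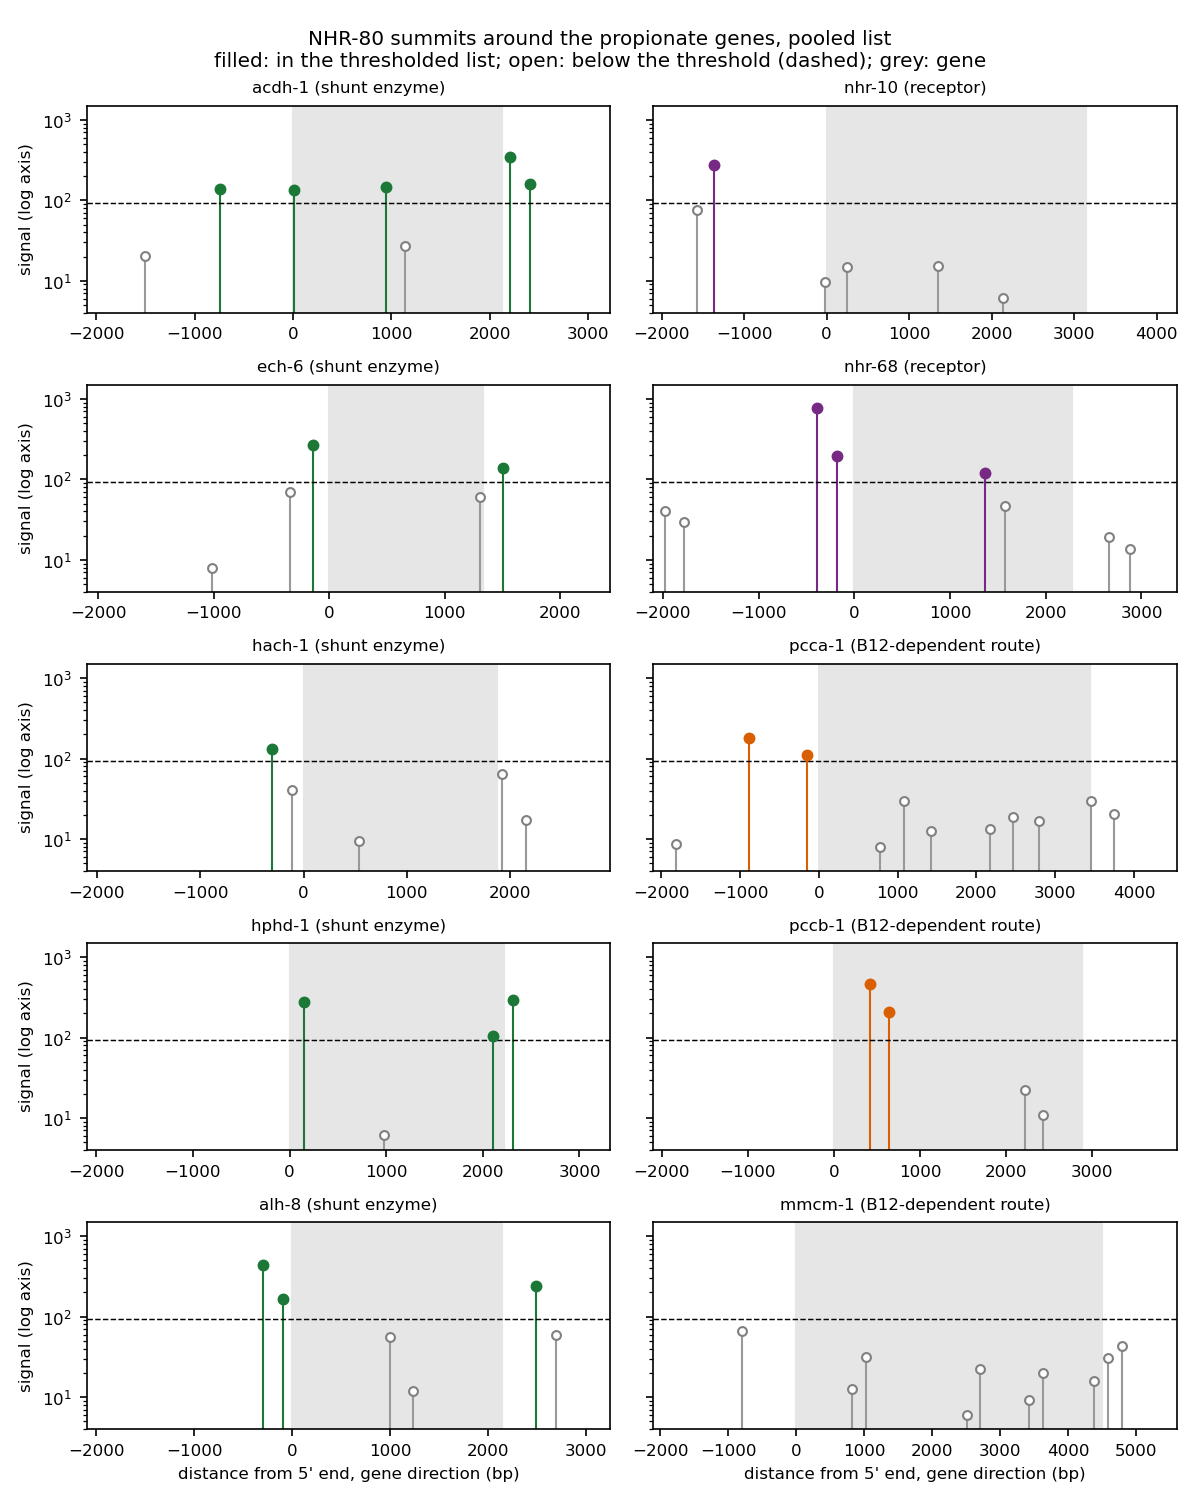
Signal of every pooled NHR-80 summit (log axis) against distance from the annotated 5' end in the direction of the gene (bp), 1 panel for each of the 10 genes. Filled points are in the thresholded list (93.0 and above, dashed line), open points are below it, and grey marks the gene; acdh-1 has 5 filled points and mmcm-1 none.

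The receptor gene nhr-68 had the strongest summit of the 10 genes. Its gene lies at V: 11573440 to 11575709 on the plus strand. The summit, at V: 11573055, was 385 bp upstream of the 5' end in intergenic sequence, with a signal of 773 that ranked 124 of 7038. In replicate 1 the overlapping peak had 441 (rank 99) and in replicate 2 it had 334 (rank 172), each on its own scale, and it was near the top of both lists. The strongest summit of nhr-68 was above that of 97.4% of the genes with a thresholded summit. The same summit lay only 65 bp upstream of the 5' end of H12C20.7, a divergent neighbour, and also within the window of nhr-101, so its position does not assign it to 1 gene. A second summit in the same interval, 176 bp upstream of nhr-68 and nearest to it, had 195 (ranks 3921 and 2961 in replicates 1 and 2). The third, in a coding exon 1370 bp downstream of the 5' end, had 122, and no peak among the 7038 strongest of replicate 2 overlapped it (rank 7167). The other 21 thresholded summits of the 10 genes had such an overlap in both replicates.

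At nhr-10 (III: 7112295 to 7115438, minus strand), which acts before nhr-68 in the known propionate response, there was 1 thresholded summit. It lay at III: 7116799, in intergenic sequence 1361 bp upstream of the 5' end, and no other protein-coding gene had it in its window. Its signal was 275 (rank 2161), with 131 in replicate 1 (rank 2647) and 148 in replicate 2 (rank 1713). Near the annotated start itself the pooled list held only weak summits, of 9.78 at 23 bp upstream and 15.0 at 250 bp downstream, both far below the threshold.

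The sequences within 50 bp of these 2 summits are given because they hold the strongest site at each receptor gene; all sequences here are the plus strand of RefSeq's WBcel235 assembly, which is build ce11. Capitals mark TGATAA, the element of the intestinal GATA factors. They also mark AGGTCA, a core element of nuclear receptor sites, and GAGAGA, which has no role given here. Each was searched on both strands, so its reverse complement is capitalised too.
nhr-68 (chrV:11573005-11573105): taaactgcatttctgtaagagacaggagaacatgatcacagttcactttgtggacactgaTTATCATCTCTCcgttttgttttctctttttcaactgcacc
nhr-10 (chrIII:7116749-7116849): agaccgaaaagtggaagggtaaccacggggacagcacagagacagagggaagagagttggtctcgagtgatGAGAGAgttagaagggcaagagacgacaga
In nhr-68 a TGATAA on the minus strand, centred 12.5 bp from the summit, runs directly into a GAGAGA on the same strand. The nhr-10 stretch has GAGAGA without TGATAA.

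The acyl-CoA dehydrogenase gene acdh-1 (I: 6497436 to 6499560, plus strand), for the first step of the shunt, carried 5 thresholded summits, a number reached by 0.496% of protein-coding genes. The strongest was not in its promoter. It lay 80 bp past the 3' end, in intergenic sequence 342 bp upstream of the 5' end of the next gene, C55B7.3, with a signal of 349 (rank 1392; replicate ranks 1065 and 1850). A second summit in that interval, 285 bp past the end, had 159. On the 5' side, a summit 739 bp upstream had 137 and one in the 5' UTR, 11 bp downstream of the 5' end, had 136. These had nearly equal values, 75.7 and 78.1 in replicate 1 and 66.7 and 59.4 in replicate 2, with ranks between 4942 and 5564. The summit in a coding exon 940 bp downstream had 145 and also lay in the window of C55B7.3. The one 739 bp upstream also lay in the windows of mdt-18 and uri-1. All 4 summits other than the strongest were below the list's median signal of 195, including both at the 5' end.

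For ech-6, the enoyl-CoA hydratase gene (III: 9751552 to 9752883, minus strand), the stronger of 2 summits lay 141 bp upstream with a signal of 265 (rank 2295). It had 163 in replicate 1 (rank 1850) and 104 in replicate 2 (rank 2996), and it also lay in the windows of T05G5.5 and vps-53. The weaker, 177 bp past the 3' end, had 139 and lay in the 5' UTR of the neighbour T05G5.5, 57 bp inside its start. The hydrolase gene hach-1 (III: 5555450 to 5557318, plus strand) had the lowest value of the shunt genes. Its single summit, 308 bp upstream, had 131 (rank 5313), with 73.7 in replicate 1 (rank 5261) and 56.3 in replicate 2 (rank 5852). It lay closer to the start of nmad-1, a demethylase gene transcribed the other way, at 208 bp.

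The dehydrogenase gene hphd-1 (II: 12994354 to 12996571, minus strand) had summits of similar strength at both ends. One lay in an intron 145 bp downstream of the 5' end, with a signal of 274 (rank 2175; 151 in replicate 1, 122 in replicate 2). The other lay 91 bp past the 3' end, with 289 (rank 1988; 177 and 113.6). The 3' summit was the stronger in replicate 1 and the weaker in replicate 2, so their order is not settled. A further summit in the 3' UTR had 104, in an interval that overlaps that of the summit past the 3' end. No other protein-coding gene had the 2 summits at the 3' end in its window.

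The semialdehyde dehydrogenase gene alh-8 (II: 11729055 to 11731198, plus strand), for the last step, had the strongest summit of the 5 enzyme genes of the shunt. At 297 bp upstream it reached 438 (rank 833), with 253 in replicate 1 (rank 716) and 185 in replicate 2 (rank 1068). A second summit in the interval, 94 bp upstream, had 165, and both also lay in the window of F13D12.5. The third, 346 bp past the 3' end in an intron of the convergent neighbour F13D12.8, had 241, with 119 in replicate 1 (rank 3031) and 127 in replicate 2 (rank 2221).

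Sequences around the shunt enzymes' summits are shown for the strongest site of each gene on chromosomes II and III and, at hphd-1, for both ends of the gene. Capitals are as above.
ech-6 (chrIII:9752974-9753074): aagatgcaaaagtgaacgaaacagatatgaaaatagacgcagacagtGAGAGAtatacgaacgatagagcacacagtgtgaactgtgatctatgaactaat
hach-1 (chrIII:5555092-5555192): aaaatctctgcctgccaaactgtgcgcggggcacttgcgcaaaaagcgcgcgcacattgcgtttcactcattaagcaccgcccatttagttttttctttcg
hphd-1, 5' side (chrII:12996376-12996476): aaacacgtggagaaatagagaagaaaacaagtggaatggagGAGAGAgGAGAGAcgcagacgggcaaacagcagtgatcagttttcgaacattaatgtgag
hphd-1, 3' side (chrII:12994213-12994313): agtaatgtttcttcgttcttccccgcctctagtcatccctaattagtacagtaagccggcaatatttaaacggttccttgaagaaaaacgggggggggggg
alh-8 (chrII:11728708-11728808): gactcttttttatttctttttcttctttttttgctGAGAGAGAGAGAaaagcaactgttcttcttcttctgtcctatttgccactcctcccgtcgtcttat
Of these 5 stretches none has TGATAA. Among shunt summits not shown, it lay 3.5 bp from the strongest summit of acdh-1, also at the acdh-1 summit 739 bp upstream, and at the hphd-1 summit in the 3' UTR. The 3 with GAGAGA are those at the summits upstream of ech-6 and alh-8 and in the intron near the 5' end of hphd-1. The 4 overlapping copies of GAGAGA at alh-8 form 1 run of GA repeats.

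On the B12-dependent route the 3 genes differed widely. In pccb-1, for the beta subunit of propionyl-CoA carboxylase (X: 3089549 to 3092437, plus strand), an intronic summit 419 bp downstream of the 5' end had 461 (rank 746), above every shunt enzyme gene. It had 254 in replicate 1 (rank 710) and 206 in replicate 2 (rank 821). A second summit of the same interval, 640 bp downstream, had 206, and neither lay in the window of another protein-coding gene. The alpha subunit gene pcca-1 (X: 7657542 to 7660986, minus strand) had lower values, 179 at 886 bp upstream and 112 at 149 bp upstream. In replicate 1 the first of these had 103 (rank 3655) and in replicate 2 it had 78.4 (rank 4236). Both pcca-1 summits also lay in the window of dhs-29.

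The mutase gene mmcm-1 (III: 3903185 to 3907687, minus strand) was the only one of the 10 genes without a thresholded summit. The pooled list held 10 weaker summits in its window, the strongest 799 bp upstream with a signal of 66.4 (rank 8724 of 30000). The strongest summit in its window had 47.8 in replicate 1 (rank 7596) and 26.5 in replicate 2 (rank 10026, at another position, 159 bp past the 3' end), outside the 7038 strongest of either. The longest of the 10 genes thus had many weak summits, which may be background, and none above the threshold. The sequences are those of the strongest site of each carboxylase gene.
pccb-1 (chrX:3089918-3090018): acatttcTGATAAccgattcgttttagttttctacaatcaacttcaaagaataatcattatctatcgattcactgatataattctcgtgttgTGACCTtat
pcca-1 (chrX:7661822-7661922): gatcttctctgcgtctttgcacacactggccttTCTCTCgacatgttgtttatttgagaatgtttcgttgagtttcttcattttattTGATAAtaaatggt
In pccb-1 the TGATAA and the AGGTCA lie near opposite edges of the stretch, centred 40.5 and 44.5 bp from the summit.

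Set side by side, the shunt enzymes and the B12-dependent route overlapped in signal. The strongest pooled signal per gene had a median of 289 for the 5 shunt enzymes (131 to 438) and 179 for the 3 genes of the route (66.4 to 461). As ranks, the medians were at 6.63% and 12.9% of the pooled list from the top, a difference of -6.29 percentage points. The replicate lists gave differences of -6.89 and -6.21 points, and summits with the gene's own 5' end as the nearest gave -5.27. In the promoter window the difference was -13.3, where pccb-1 has no pooled summit and the route's median rests on 2 genes, pcca-1 and mmcm-1. The mmcm-1 summit (66.4) is below the threshold and may be background. The comparison is of 5 and 3 genes with overlapping ranges and no test. The route's genes were also longer, with a median of 3445 bp against 2125 bp.

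**Figure D2:**
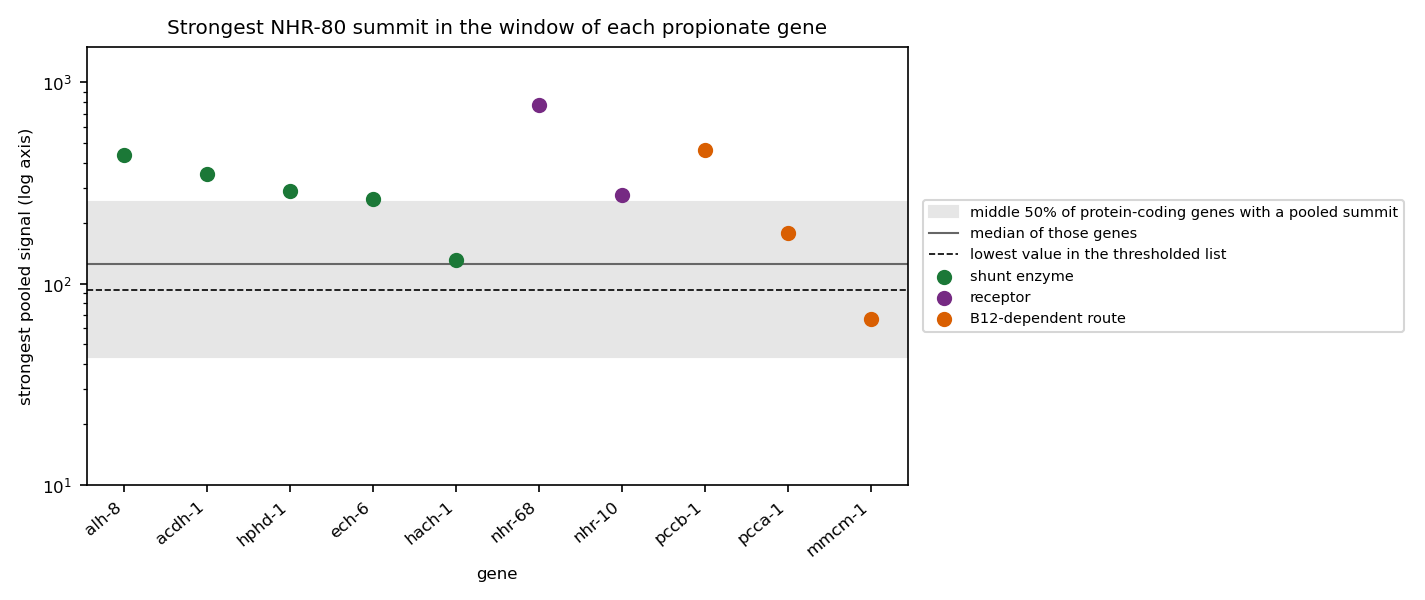
Strongest pooled NHR-80 signal (log axis) in the window of each of the 10 genes, coloured by role, with the median (125) and quartiles of the 10781 protein-coding genes that have a pooled summit. The shunt enzyme genes span 131 to 438 and the route's genes span 66.4 to 461, so the ranges overlap, and nhr-68 stands highest at 773.

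In position, a narrower promoter window was taken that began 1000 bp before the 5' end and stopped 200 bp after it. Each of the 5 shunt enzyme genes had a summit there, against 18.6% of protein-coding genes. Of the other members only nhr-68 and pcca-1 did, since the summits of nhr-10 lay farther upstream and those of pccb-1 farther downstream. A summit within 1000 bp past the 3' end was found at acdh-1, ech-6, hphd-1 and alh-8 and at none of the receptor and route genes, against 8.14% of all protein-coding genes and 9.1% of those in the length range. The same 4 genes had both a promoter-window summit and one past the 3' end, as did 2.63% of all protein-coding genes. This 3' window was chosen after the summits had been seen, and whether the shunt and the route differ in it was not tested. Below the threshold the pooled list also held summits there at hach-1 (64.1), mmcm-1 (43.8), pcca-1 (29.6) and nhr-68 (19.2). Of the 5 thresholded summits there, the 2 of acdh-1 lay upstream of C55B7.3, that of ech-6 within T05G5.5 and that of alh-8 within F13D12.8. Each of these 4 had its nearest 5' end at that neighbour. The one at hphd-1 was the exception. Over all 22 summits, 16 had the member's own 5' end as the nearest, 6 had another gene's, and 6 lay in no other protein-coding gene's window.

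Under other rules the counts of the 10 genes were as follows. A summit from 2000 bp upstream to 500 bp downstream was found at 9 genes, against 24.2% of all, and one in the gene body at 4, against 8.79%. With nearest 5' ends only, 8 genes had one, against 21.2%. The call at hach-1 ended under this rule, leaving 4 of the 5 shunt enzyme genes, since the strongest summit nearest to its own start had 41.0 (rank 11205). A summit above the median signal was found at 7, against 18.8%. In the pooled list without a threshold, which includes background, all 10 had one, against 54.0%. In a pooled list cut to the 9962 peaks of the authors' ce10 list all 10 did, against 38.6%. The 7038 strongest peaks of replicate 1 gave 9 genes, against 31.7%, and those of replicate 2 gave 9, against 32.1%.

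Both replicates placed peaks at nearly all of these sites. Of the 22 summits, 21 lay in an interval that overlapped a peak among the 7038 strongest of each replicate. The thresholded list was made from the same replicates, so this does not measure agreement independently. No share over all thresholded summits is given beside this count, so it is not read as particular to these genes. The nearest replicate summit was a median of 9 bp away in replicate 1 and 11 bp in replicate 2, and at most 101 bp away. At pcca-1, the nearest replicate 1 summit to the one 149 bp upstream ranked only 11660, although another peak overlapping that interval ranked 6964.

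**Figure D3:**
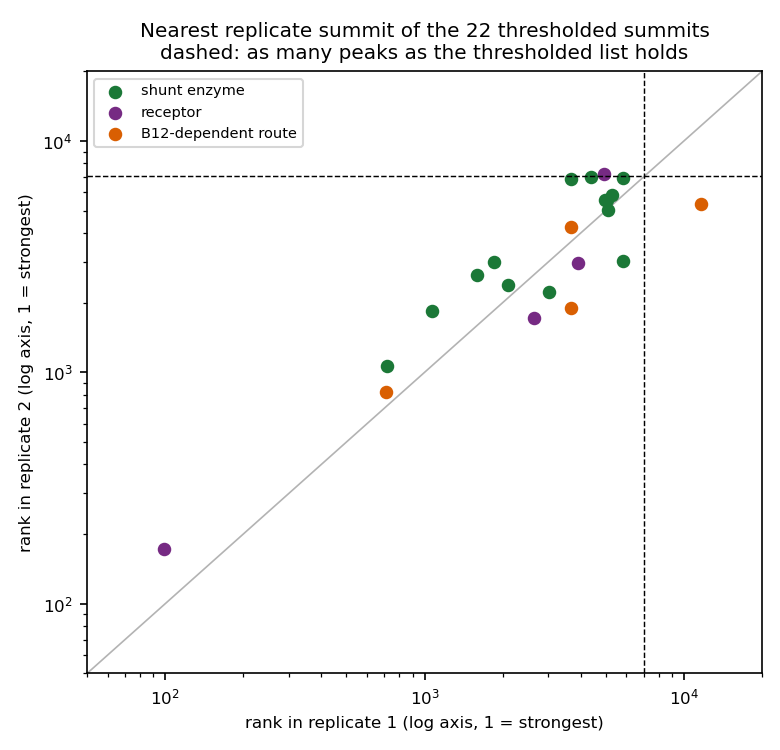
Rank in replicate 1 against rank in replicate 2 (log axes, 1 is the strongest) of the summit nearest to each of the 22 thresholded summits, coloured by role, with the line of equal rank in grey. The nhr-68 summit at ranks 99 and 172 stands apart, and 1 point lies beyond rank 7038 (dashed) in each replicate.

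The sequence at the summits was searched for 5 elements, chosen with earlier results known, in the stretch of 50 bp either side of each summit and on both strands. TGATAA was present at 7 of the 22 (31.8%), in acdh-1, hphd-1, nhr-68, pcca-1 and pccb-1, against 37.9% of the 7020 nuclear thresholded summits and 12.7% of the 22960 weaker pooled ones. AGGTCA was present at 2 (9.09%), the 3' side of acdh-1 and pccb-1, against 3.33% of thresholded summits and 2.89% of the weaker pooled ones. CACCC, a core of sites for KLF and SP factors, was at 1 (4.55%, against 11.4%). The HNF4-type core AGTCCA and the longer CAAAGTCCA, which contains it, were at none, against 1.64% and 0.157%. These letters' absence from the stretches says nothing about which factor was there.

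GAGAGA, added after the sequences had been read, was present at 7 of the 22 (31.8%), against 19.5% of all thresholded summits and 8.57% of the weaker pooled ones. The 7 fell in 7 genes: ech-6, hphd-1, alh-8, nhr-10, nhr-68, pcca-1 and pccb-1. The centres lay within 23.5 bp of the summit. With 100 bp either side GAGAGA was at 36.4% of the member summits, against 30.9% of all thresholded ones. With 25 bp either side it was at 27.3%, against 10.8%. GC content of the 22 stretches had a median of 37.6% (27.7 to 63.4%), against 40.6% over the thresholded summits. Stretches around paired summits of 1 interval are neighbours and not independent.

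Summits were also counted at 23 other genes named by textbook role. They cover branched-chain amino acid breakdown, B12 handling, relatives of acdh-1 and the receptor gene nhr-114, and are not limited to propionate metabolism. With the same window, 20 of the 23 had a thresholded summit, against 32.3% of protein-coding genes, 13 had one in the promoter window, against 18.6%, and 10 had one above the median signal, against 18.8%. In the breakdown of branched-chain amino acids 11 of 12 genes had one. The strongest was at dbt-1, for the transacylase core of the branched-chain ketoacid dehydrogenase, with 494 in an intron (rank 621; replicate ranks 641 and 599). Next came ivd-1, for isovaleryl-CoA dehydrogenase (403, 293 bp upstream), bckd-1B, for a subunit of the same ketoacid dehydrogenase (341, 594 bp upstream), and kat-1, for a thiolase (317, 466 bp upstream). The exception was mccc-2.

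Of 7 genes for B12 handling and the rest of the B12-dependent route, 6 had a thresholded summit, against 32.3% of protein-coding genes. The exception was mmab-1. In the promoter window 3 of the 7 had one, against 18.6%. The methionine synthase gene metr-1, whose product is the other B12-dependent enzyme, had 375 at 1701 bp upstream, where the nearest 5' end was that of Y19D2B.2. The transporter gene pmp-5 had 369 at 121 bp upstream. The epimerase gene mce-1, which works between the carboxylase and the mutase, had 155 at 112 bp upstream, so of the carboxylase, epimerase and mutase genes only mmcm-1 had no thresholded summit. Among relatives of acdh-1, acdh-2 (108) and acdh-3 (152) had weak summits, none in the promoter window, and acdh-4 had no pooled peak in its window. The nearest 5' ends were those of ins-13 for acdh-2 and K06A5.3 for acdh-3. In replicate 1 the peak at acdh-2 ranked 8017, outside the 7038 strongest. The receptor gene nhr-114, known for a second response to low B12, had 171 at 693 bp upstream (rank 4077), with its own 5' end the nearest. The strongest nhr-68 summit nearest to the nhr-68 start had 195 (rank 3515).

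**Figure D4:**
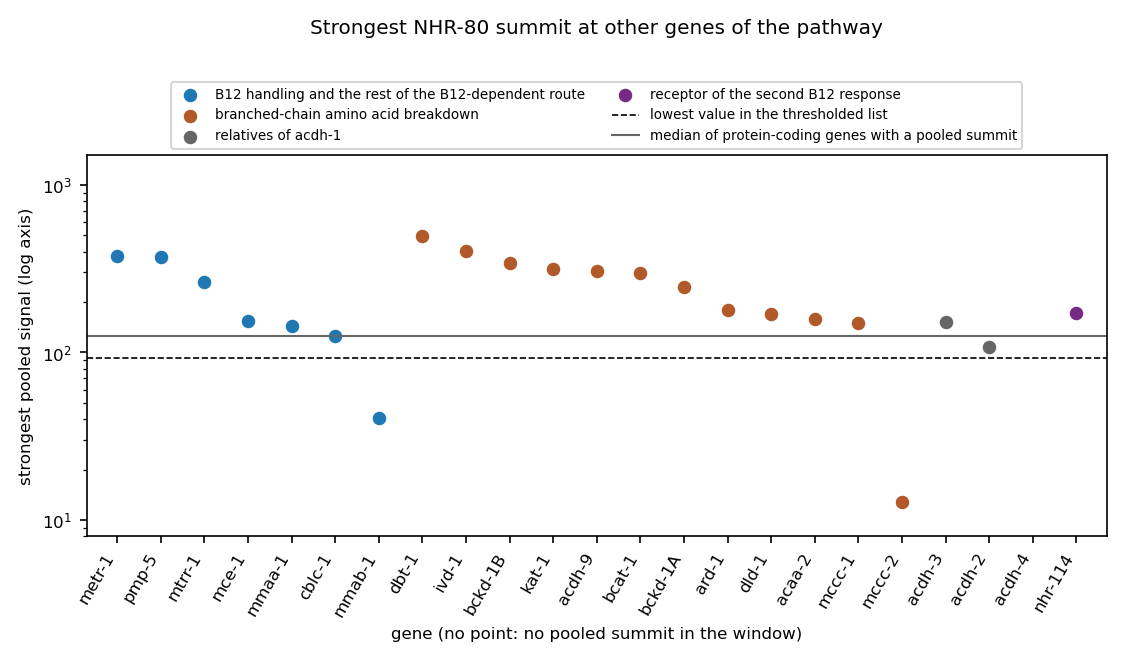
Strongest pooled NHR-80 signal (log axis) in the window of 23 other genes of propionate, branched-chain amino acid and B12 metabolism, coloured by list. Of these, 20 lie above the threshold of 93.0 (dashed), dbt-1 is highest at 494, and acdh-4 has no point because no pooled summit lay in its window.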

How the data were processed

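ChIP-seq peak lists of 2 biological replicates of 1 group were used, in the narrowPeak layout on build ce11. Per notes deposited with the samples, the authors made a list for each replicate (30000 and 29712 peaks) and for both pooled (30000) against a control, and derived the IDR-thresholded list from these. For the aligner and peak caller, as for the IDR cut-off, the sources used here give nothing. The signal values are the authors' own per peak, as deposited. The control decides how far abundant or open chromatin is corrected, and the threshold decides which weak summits are listed. Of the ce10 lists only the number of thresholded peaks (9962) was used.

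Coordinates are 1-based on ce11 and were compared with RefSeq's WBcel235 genome, the same assembly, and the Ensembl release 115 annotation. Peaks on mitochondrial DNA (18 thresholded) have no gene here. 1 summit could count for several genes. Replicate support needed an overlap of 1 bp or more. With 1 group and members picked with earlier results of these data known, no test was run; the lists were likewise chosen with those results known. All 10 members are named, and of the pathway list the 6 strongest genes. The exceptions and mce-1, nhr-114, acdh-2 and acdh-3 are named outside that rule, with their values known. Each 5' end nearer to a member's strongest summit than its own is named too. A sequence name on that list, F02A9.4, is mrpl-44 in this annotation, so the carboxylase gene mccc-2 was used. Other windows, thresholds, overlaps and stretch widths were tried. Window counts were checked against bedtools 2.31.1 and tested on simulated data. Python 3.11.15, numpy 2.4.6, pandas 2.3.3 and matplotlib 3.10.9 were used.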

Additional observations from a re-analysis of the deposited data

How the results depend on the processing

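The count of 9 genes with a thresholded summit stayed between 7 and 10 for the promoter window, 2000 bp upstream to 500 bp downstream, a signal above the median, nearest start only, a looser threshold and the list of either replicate alone (9 in each). It was 4 in the gene body only and 4 past the 3' end only, where fewer positions count. The median strongest rank was 6.92% of the pooled list from the top. It was 12.9% in the promoter window, without pccb-1, and 9.68% by nearest start only. With 1 replicate left out it was 5.73 to 7.14% of the other replicate's list. The difference between shunt and route of -6.29 points was -13.3 in the promoter window, without pccb-1, -5.27 by nearest start only and -6.89 to -6.21 with 1 replicate left out. By nearest start only, nhr-68 moved from 0.413% to 11.7% and hach-1 from 17.7% to 37.4%. In the promoter window acdh-1 moved from 4.64% to 17.0% and nhr-10 from 7.20% to 76.5%. The 37.4% of hach-1 and the 76.5% of nhr-10 are pooled summits below the threshold, which may be background. The same holds for mmcm-1 in each setting, so the medians and differences of rank include such entries. Other pathway genes with a summit were 13 in the promoter window, 10 above the median signal, and 19 to 20 with 1 replicate left out. Support by both replicates was 15 of 22 summits at 50% reciprocal overlap and 19 with summits within 100 bp. No share over all thresholded summits is given for these counts either. Within 25 bp of the summit TGATAA was at 3 of 22 (13.6%, against 22.3% of thresholded summits) and AGGTCA at 1 (4.55%, against 1.71%). Within 100 bp CACCC was at 3 (13.6%, against 20.6%), AGGTCA at 2 (9.09%, against 6.31%) and GAGAGA at 8 (36.4%, against 30.9%). No paired analysis was possible because there is 1 group. Depth is unknown, and values near the threshold are the least certain.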

Other observations

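The ce10 list thresholded by the authors holds 9962 peaks against 7038 on ce11. Taking that many of the strongest pooled ce11 peaks, without using ce10 coordinates, brings in mmcm-1 through its summit at 799 bp upstream (66.4, rank 8724), so that all 10 propionate genes have one, against 38.6% of protein-coding genes. The weaker summits that this looser threshold also brings in include ech-6 at 344 bp upstream (69.6) and nhr-10 at 1572 bp upstream (75.04).

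At hach-1 the pooled list holds a summit 54 bp past the 3' end, with a signal of 64.1 (rank 8902), below the ce11 threshold. It lies in a coding exon of rpc-2, 7 bp from the rpc-2 start, which is its nearest 5' end. Replicate 1 has one with 35.8 (rank 9150), 4 bp from that start, and replicate 2 one with 27.03 (rank 9905).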
